A study of Mus musculus with 15 samples.

Results

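Cells 8 days into chemical induction (D8) were compared with the astrocytes they started from (D0), over every gene with 1 FPKM or more in 3 of these 6 libraries. This kept 13134 of the 24346 genes in the table. FPKM is a transcript's fragments per kilobase of its length, scaled to the library's mapped fragments. Each group held 3 libraries of total RNA from C57BL/6 mouse brain cells, and the study's design text places the time course in vitro while its title speaks of reprogramming in vivo. The labels describe the D0 cells as astrocytes and the D8 cells as neurons induced by chemicals. The compounds and their doses, the age of the mice and the way the astrocytes were purified are not given in the sources used here, and no label names a transgene. Primary neurons (PN, 3 libraries, same strain) serve below as a reference level for some genes. Nothing in the labels says that libraries of a group came from separate cultures. A p-value here therefore reflects only how far libraries spread within groups, and that spread may be technical. The spread was estimated from all 15 libraries of the series, in 5 groups, and not from the 6 D0 and D8 libraries alone.

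Astrocytes are the glial cells that take up glutamate and potassium around synapses, and their cytoskeleton is built on the filaments Gfap and vimentin. In culture they divide and can take on contractile and matrix-forming features. Neurons have left the cell cycle, load transmitter into synaptic vesicles and peptides into dense-core granules, and use RNA-binding proteins that other cells keep low. Direct conversion means moving from the first programme to the second without passing through a stem cell.

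Of the 13134 genes, 2089 were higher at D8 (15.9%) and 2333 were lower (17.8%), and 8712 were not called. A gene was called, and is said here to have risen or fallen, at an adjusted p below 0.05 (limma, Benjamini-Hochberg) and a change of at least 1 in log2(FPKM + 1). Changes are given on that scale as D8 minus D0, each group being a mean of 3 libraries. The standard error is that of the fit, with the spread pooled over all 15 libraries. For genes of low level this scale gives too small a change, and where a group is listed at 0 the change depends on the added 1, so no fold is given there. The 3 D0 and the 3 D8 libraries did not overlap in 8676 genes (66.1%), and in 4370 of the 4422 called. A change of at least 3 was reached by 268 higher and 313 lower genes, while for 5832 genes the 95% confidence interval stayed within 1 of no change. The median change over all genes was -0.03 and the median standard error 0.20. D0 libraries correlated with each other, and D8 libraries with each other, at 0.985 to 0.993, against 0.889 to 0.906 between the groups (Pearson). These correlations were taken across all 24346 genes, unexpressed ones included, and not across the 13134 alone. Genes are not independent replicates. Among the genes, 759 stayed below 1 FPKM in every D0 library and passed the filter through D8, and 545 passed through D0 in the same way. For these genes passing the filter already required a difference, so they are counted apart in the gene lists below where they are many. Of the 11830 genes at 1 FPKM or more in some library of each group, 11.9% were higher and 15.6% lower. Counts in every gene list below are to be read beside these shares and the 15.9% and 17.8% of all genes.

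**Figure D1:**
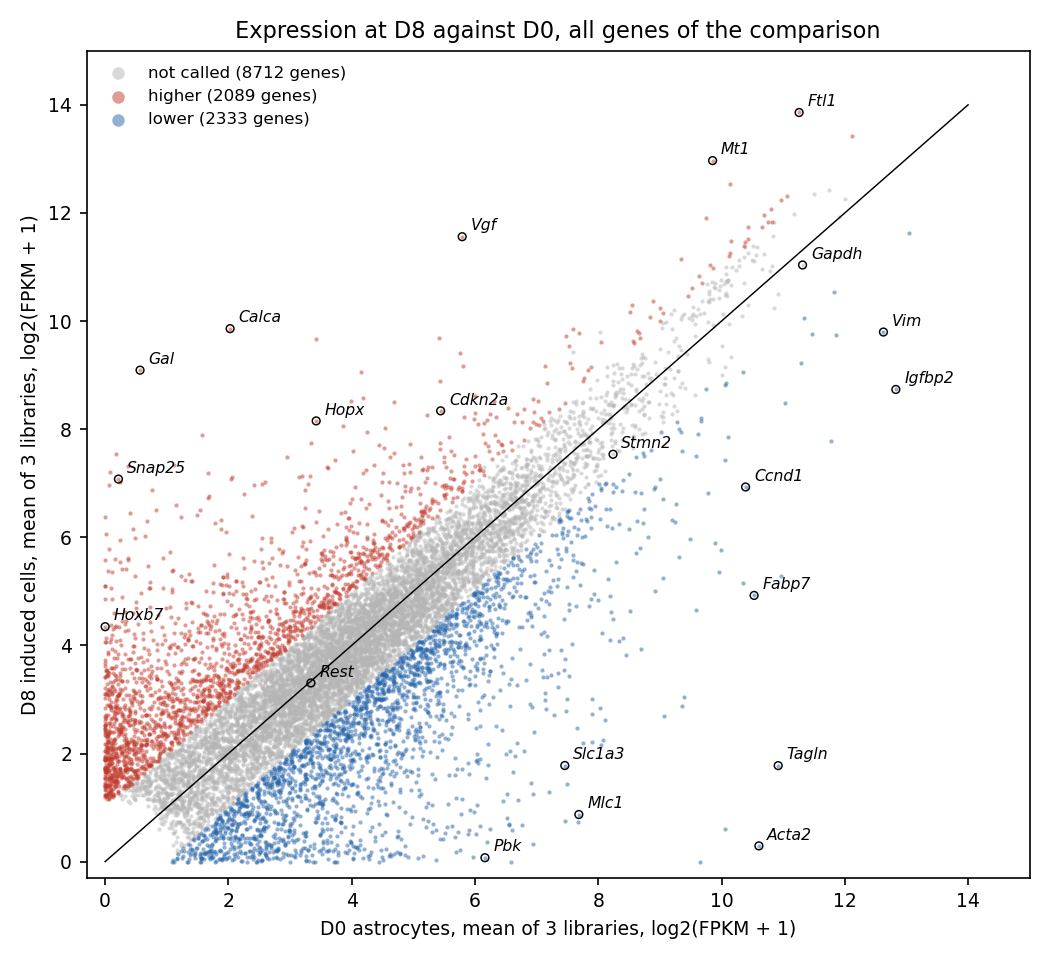
Mean level of each of the 13134 genes at D0 (x axis) and D8 (y axis), both as the mean of log2(FPKM + 1) over 3 libraries, with the line of equal levels. The 2089 genes called higher and the 2333 called lower lie on either side of 8712 grey genes, with peptide genes such as Gal at the upper left and contractile genes such as Acta2 at the lower right.

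Summed FPKM was between 597084 and 787080 in the 6 libraries, each of which had 12072 to 12814 genes at 1 FPKM or more. Read counts were not used here. Relative depth, read from the steps of low values with D0 replicate 1 set at 1, ran from 0.71 to 1.70. Only 32.4% to 44.3% of the low-value ratios to that library lay on whole-number steps, so these depths are rough. D0 replicate 2 stood highest of the D0 libraries in contractile and many matrix genes, and results that move with it are given without it below.

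The labelled cell types were checked on marker genes. All 10 astrocyte markers fell, and their summed level went from 878 to 1983 FPKM across the D0 libraries to 106 to 122 FPKM at D8. Of 12 neuron markers 8 rose, none fell, and Dcx, which marks young migrating neurons, stayed below the filter at 0.327, 0.0762 and 0.141 FPKM in the D8 libraries. The D0 libraries already held 249, 346 and 318 FPKM of the neuronal stathmin Stmn2 and 89.1, 49.7 and 72.5 FPKM of the growth cone gene Gap43, and neither was called at D8. D0 also held ependymal, oligodendrocyte-lineage, mural and fibroblast markers: the ciliary factor Foxj1 was at 69, 151 and 118 FPKM and Olig1 at 246, 186 and 293 FPKM. The summed levels of these 4 marker sets were 120 to 294, 327 to 525, 763 to 3777 and 5498 to 13637 FPKM at D0, and 6.50 to 8.45, 41.2 to 53.7, 5.42 to 12 and 343 to 518 FPKM at D8. Igfbp2 made up most of the fibroblast sum, and Col3a1 was listed at 0 in every D8 library. Microglia and macrophage markers rose in sum from 23.5 to 43.6 FPKM to 197 to 658 FPKM, nearly all of it Cd68. Tmem119, the other listed marker that rose, was at 0.288, 0.165 and 0.411 FPKM at D0 and 3.73, 3.02 and 4.13 FPKM at D8, while C1qb, C1qc and P2ry12 were listed at 0 in every D8 library. Endothelial markers summed to 2.04 to 9.72 FPKM at D0 and 4.42 to 12.2 FPKM at D8. In bulk samples fewer cells of a type and less RNA per cell cannot be told apart. The part of these other cell types in the gene changes below was not tested.

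Peptide, granule and synaptic genes were among the largest rises. Coordinates of whole genes below are from RefSeq (GRCm38.p6), matched by symbol. The galanin gene Gal (chromosome 19, 3409915 to 3414544) was at 1.54, 0.276 and 0 FPKM at D0 and 499, 387 and 836 FPKM at D8, a change of 8.53 ± 0.56 (adjusted p = 9.51e-09). The calcitonin and CGRP gene Calca (chromosome 7, 114625981 to 114636910) was at 1.52, 5.04 and 3.45 FPKM at D0 and 658, 657 and 1846 FPKM at D8 (7.83 ± 0.65, adjusted p = 1.04e-07). All 3 D8 libraries were above every D0 library in both genes, and D8 replicate 3 was the highest. The table does not separate the calcitonin and CGRP transcripts of Calca, and its paralog Calcb (5.07 ± 0.53) could share reads with it. Resp18, a granule protein of endocrine cells, was at 0.188, 0 and 0 FPKM at D0 and 173, 154 and 119 FPKM at D8 (7.13 ± 0.37). It was near 0 in every D0 library and above 100 FPKM in every D8 library. Cd40, a receptor of the tumour necrosis factor family, was at 0.319, 0.270 and 0.301 FPKM at D0 and 72.8, 398 and 137 FPKM at D8. Its change was 6.94 ± 0.47, and 6.28 without D8 replicate 2, the highest library. Cryba2, a lens crystallin gene also found in endocrine cells, was at 0, 0.132 and 0 FPKM at D0 and 51.9, 170.2 and 213 FPKM at D8, with a change of 6.90 ± 0.39 and of 7.52 without D8 replicate 1. For both genes all D8 libraries were above all D0 libraries, and the D8 libraries differed among themselves by more than those of Resp18.

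At the other end, smooth muscle actin Acta2 (chromosome 19, 34240336 to 34255585) was at 749.8, 3761 and 1339 FPKM at D0 and 0.0724, 0.621 and 0.0532 FPKM at D8, a change of -10.32 ± 0.95 (adjusted p = 3.01e-07), or -9.68 without D0 replicate 2. The calcium-binding gene S100a4 (chromosome 3, 90603770 to 90606045) was at 1649.9, 1123 and 651 FPKM at D0 and 0.675, 1.11 and 0 FPKM at D8 (-9.45 ± 0.36). Every D0 library exceeded every D8 library by a wide margin in both genes. Mlc1, a membrane protein of astrocyte endfeet, was at 157, 164 and 334 FPKM at D0 and 0.566, 1.36 and 0.654 FPKM at D8 (-6.81 ± 0.46). Igfbp5, which binds insulin-like growth factors, was at 67.7, 460.2 and 269 FPKM at D0 and 0.675, 0.659 and 0.681 FPKM at D8, with a change of -6.93 ± 0.53, -7.72 without D0 replicate 1 and -6.35 without D0 replicate 2. D0 replicate 2 was the highest library for Acta2 and Igfbp5 and replicate 1 for S100a4. Npvf, an RFamide peptide gene, was at 59.6, 59.1 and 239 FPKM at D0 and listed at 0 in all D8 libraries (-6.58 ± 0.42, and -5.92 without D0 replicate 3).

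**Figure D2:**
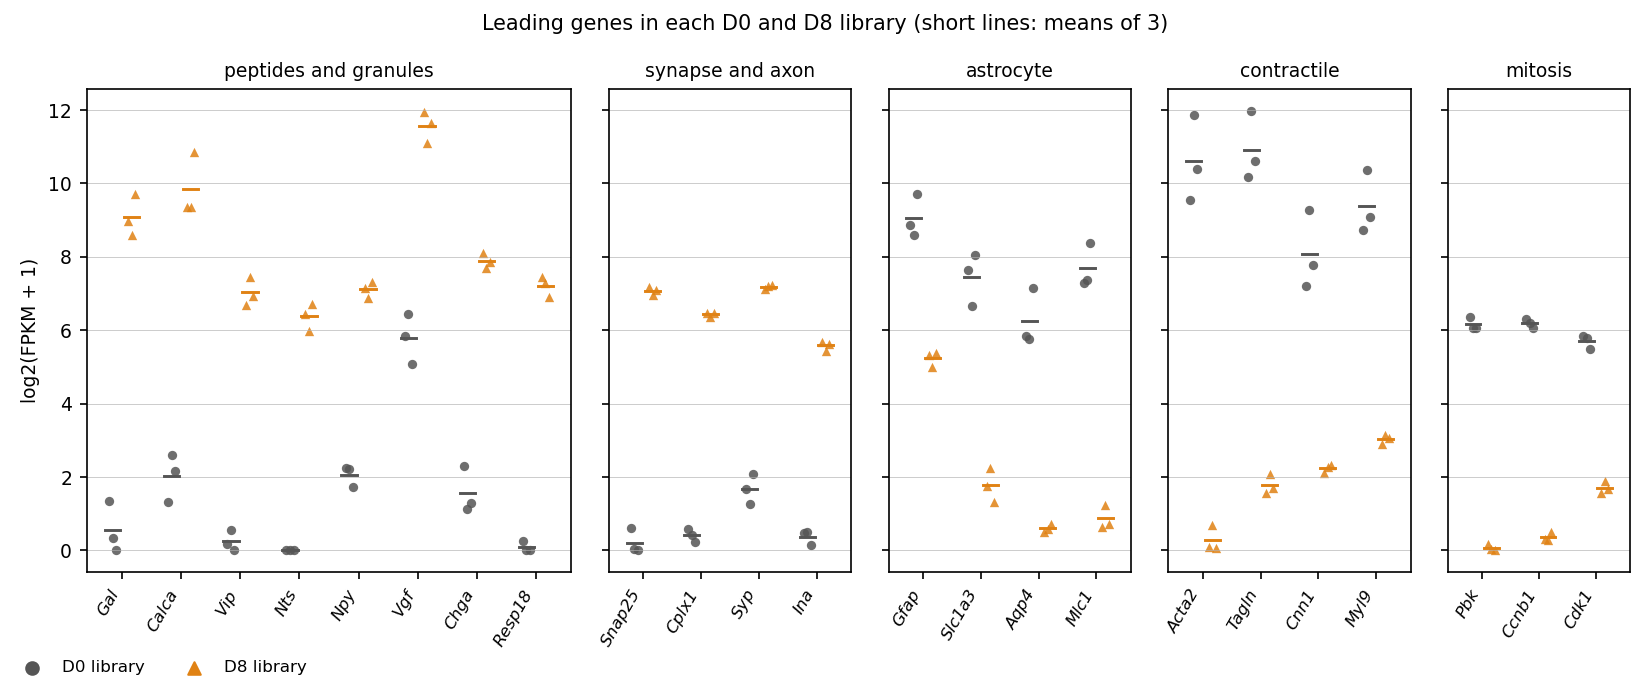
Level in each library, log2(FPKM + 1), of leading genes in 5 groups, D0 as circles and D8 as triangles, with short lines at the means of 3 libraries. The libraries of the 2 time points do not overlap in any gene shown, with Gal going from 0 to 1.54 FPKM at D0 to 387 to 836 FPKM at D8 and Acta2 in the opposite direction.

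Ferritin and metallothionein took a larger share of the transcripts at D8. Ftl1, the ferritin light chain that stores iron, was at 2580.1, 2648 and 2149.5 FPKM at D0 and 12937, 17312 and 14605 FPKM at D8 (2.60 ± 0.26), and its share of all FPKM went from 0.382% to 2.15%. The metal-binding genes Mt1 and Mt2 went from 0.149% and 0.185% to 1.22% and 0.894%. D8 replicate 2 was the highest library for both, with Mt1 at 763, 837 and 1239 FPKM at D0 and 5402, 13874 and 6857 FPKM at D8 (3.11 ± 0.39). The brain metallothionein Mt3 went the other way, at 1583, 2444 and 2324 FPKM at D0 and 254, 499 and 360.1 FPKM at D8 (-2.54 ± 0.43). Some abundant genes of the D0 libraries took a smaller share at D8, all 4 of them called lower: vimentin Vim from 0.990% to 0.130%, Igfbp2 from 1.21% to 0.0621%, the actin-sequestering Tmsb4x from 1.33% to 0.486% and S100a11 from 0.584% to 0.123%. Ferritin, metallothionein and Tmsb4x have close copies in the genome, and how the authors' counting split reads between copies is not given in the sources used here.

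Neuropeptide genes of several families were higher at D8. Of 35 listed genes 24 passed the filter, and of these 19 rose, 1 fell and 4 were not called. Of the 19, 12 were below 1 FPKM in every D0 library and passed through D8 alone, and of the other 12 genes 7 rose. Vip, the vasoactive intestinal peptide, was at 0.137, 0.475 and 0 FPKM at D0 and 102, 174 and 122 FPKM at D8 (6.78 ± 0.69). Neurotensin, Nts, was listed at 0 in every D0 library and at 86.2, 62.1 and 105 FPKM at D8. Npy, neuropeptide Y, was at 3.78, 3.64 and 2.29 FPKM at D0 and 140.4, 117 and 159 FPKM at D8 (5.05 ± 0.37). These peptides belong to different neuron classes in the brain and gut. Somatostatin Sst (mean 0.0822 to 29 FPKM), substance P precursor Tac1 (0.0741 to 20.1), thyrotropin-releasing hormone Trh (0.0771 to 16.8), cholecystokinin Cck (1.48 to 24.9) and enkephalin Penk (1.04 to 16.7) rose to lower levels. Adm, adrenomedullin, a vasodilator peptide of many cells, was the listed gene that fell, at 53.1, 47.6 and 24.9 FPKM at D0 and 2.01, 1.74 and 1.87 FPKM at D8 (-3.83 ± 0.31). The peptide gene Npvf, which fell by more (-6.58), was not on the list and is not in these counts. The hypothalamic genes Oxt, Avp, Hcrt, Pmch and Gnrh1 stayed below the filter.

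Genes of the dense-core granule, the compartment that packs and cuts these peptides, rose with them. All 20 listed genes passed the filter, 16 rose, 4 of them having passed through D8 alone, none fell and 4 were not called (median change 2.81), and at an unadjusted limma p below 0.05 the counts were 18 higher and 0 lower. Vgf, a granin-like precursor, was at 56.9, 86.3 and 32.7 FPKM at D0 and 3933, 2189 and 3195 FPKM at D8 (5.77 ± 0.47). Chromogranin A, Chga, was at 3.92, 1.19 and 1.45 FPKM at D0 and 273, 207 and 232 FPKM at D8 (6.31 ± 0.30). In both genes the lowest D8 library was far above the highest D0 library. Of the convertases that cut precursors, Pcsk2 went from a mean of 0.304 to 18.8 FPKM (3.92 ± 0.26) and Pcsk1 from 0.0703 to 6.32 FPKM (2.74 ± 0.32). The enzymes that trim and amidate the cut peptides were not called: carboxypeptidase E, Cpe, was at 1074, 931 and 1126 FPKM at D0 and 839, 1544 and 1071 FPKM at D8 (0.10 ± 0.28, adjusted p = 0.776), and the amidating enzyme Pam at -0.25 ± 0.20 (adjusted p = 0.301). Secretogranin Scg2 was at 0.903, 1.30 and 6.42 FPKM at D0 and 115, 91.4 and 108 FPKM at D8 (5.05 ± 0.52, and 5.66 without D0 replicate 3), and Chgb at 13, 11.3 and 25.6 FPKM at D0 and 199, 101 and 87.1 FPKM at D8 (2.87 ± 0.38).

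The promoters of 3 peptide or granule genes are shown because they hold the cAMP response element in full, with the motif TGACGTCA in capitals. They come from RefSeq (GRCm38.p6), 5′ to 3′ on the gene's strand, and end at or before the start of transcription. Sst is chr16:23890845-23890942 (minus strand), Scg2 is chr1:79440037-79440144 (minus strand) and Chgb is chr2:132781520-132781627 (plus strand).
Sst: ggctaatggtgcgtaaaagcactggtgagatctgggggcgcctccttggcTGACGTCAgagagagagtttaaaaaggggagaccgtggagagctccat
Scg2: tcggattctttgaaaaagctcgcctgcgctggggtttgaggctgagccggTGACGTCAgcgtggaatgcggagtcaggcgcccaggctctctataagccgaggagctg
Chgb: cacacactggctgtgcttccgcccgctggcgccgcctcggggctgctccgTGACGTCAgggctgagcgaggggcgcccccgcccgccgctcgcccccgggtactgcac
The motif, which reads the same on both strands, starts 48 bases before the start site in Sst, 68 in Scg2 and 72 in Chgb. In windows from 250 bases before to 50 after the start it was present in 3 of 29 neuropeptide genes with a promoter in the RefSeq table (10.3%: Sst, Cartpt and Ucn) and in 3 of 17 dense-core granule genes (17.6%: Chgb, Scg2 and Pcsk1). Among all 27025 genes the share was 2.03%, and among immediate-early and cAMP genes 1 of 27 (3.70%). A match describes the letters in the window and was not tested as a site. Of the cAMP and immediate-early genes themselves, 9 of 34 rose (26.5%), 6 fell (17.6%, near the 17.8% of all genes) and 19 were not called: the early response factor Egr1 (9.65, 17.1 and 20.5 FPKM at D0 and 158, 59.7 and 115 FPKM at D8, 2.69 ± 0.36) and the stress-induced Atf3 (5.61 to 30 FPKM, 2.23 ± 0.35) rose, Fosl1 fell (-1.99 ± 0.31), and Fos was at 0.45 ± 0.67 (adjusted p = 0.58).

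The machinery that releases synaptic vesicles rose as a group. Of 47 listed genes 42 passed the filter, 35 rose, 1 fell and 6 were not called. Of the 35, 12 passed through D8 alone, and of the other 30 genes 23 rose. Snap25 (chromosome 2, 136713439 to 136782428), a fusion protein of the vesicle SNARE complex, was at 0.516, 0.0324 and 0 FPKM at D0 and 145, 123 and 135 FPKM at D8 (6.86 ± 0.27, adjusted p = 4.61e-11). Synaptophysin, Syp, the main membrane protein of the vesicle, was at 2.20, 1.41 and 3.22 FPKM at D0 and 138, 147 and 149 FPKM at D8 (5.51 ± 0.24). Both were within a narrow range across the D8 libraries. The synaptotagmins, a family of vesicle proteins that includes calcium sensors, moved unequally: Syt13 was at 6.22 ± 0.63 and Syt4 at 5.49 ± 0.20, the fast calcium sensor Syt1 was at 0.687, 3.59 and 1.41 FPKM at D0 and 27.9, 14.3 and 22.2 FPKM at D8 (3.04 ± 0.39), and Syt11 was at 0.24 ± 0.27 (adjusted p = 0.459). Complexin, which clamps the SNARE complex, split by isoform, with Cplx1 at 0.497, 0.342 and 0.166 FPKM at D0 and 88.4, 81.9 and 87.6 FPKM at D8 (6.03 ± 0.21) and Cplx2 at 25.1, 20.3 and 19.8 FPKM at D0 and 9.29, 7.36 and 6.32 FPKM at D8 (-1.40 ± 0.23). Of the genes of the release site, Unc13a rose to a mean of 17.8 FPKM (2.99 ± 0.21), Rims2 to 11.7 (1.39 ± 0.24) and Bsn, bassoon, to 8.28. Erc2 was not called (0.62 ± 0.26), and Rims1 and Pclo stayed below the filter.

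Some genes that fix the transmitter were higher for GABA, glutamate, acetylcholine and dopamine, though not for every step. Of 23 listed genes 10 passed the filter, of which 7 rose and none fell (9 and 0 at an unadjusted limma p below 0.05). Of the 7, 5 passed through D8 alone, so this count supports nothing further. For GABA, the inhibitory transmitter, the synthesis gene Gad1 was at 1.38, 0.951 and 2.19 FPKM at D0 and 35.8, 28 and 46.9 FPKM at D8 (3.92 ± 0.46) and the vesicular transporter Slc32a1 was listed at 0 in every D0 library and at 38.4, 21.9 and 43.6 FPKM at D8. For glutamate, the transporter Slc17a7 was at 0.163, 0.179 and 0 FPKM at D0 and 25.4, 14.1 and 19.8 FPKM at D8 (4.19 ± 0.36). Of the other listed glutamate transporters, Slc17a6 was listed at 0 in every D0 library and at 0.578, 0.630 and 0.636 FPKM at D8. Slc17a8 had means of 0.199 FPKM at D0 and 0.394 FPKM at D8, and both stayed below the filter. The acetylcholine genes Slc18a3, a vesicular transporter (0.0270 to 11.1 FPKM), and Ache, which breaks acetylcholine down (1.18 to 43.3 FPKM), rose, while the synthesis gene Chat was at 1.77, 0.482 and 0.772 FPKM. Dopamine transporter Slc6a3 rose to a mean of 3.07 FPKM and the dopamine synthesis gene Th was at 0, 0 and 0.0822 FPKM. The GABA genes and Slc17a7 were above their D0 levels in every D8 library, while Slc17a6, Chat and Th were below or near 1 FPKM. Each value is a mean over all cells of a library, so which genes were in the same cell was not measured.

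Voltage-gated channels rose in 23 of 36 genes that passed the filter (63.9%, against 15.9% of all genes). There were 1 lower (2.78%, against 17.8%) and 12 not called (55 listed). Of the 23, 13 passed through D8 alone, and of the other 23 genes 10 rose. The pacemaker channels Hcn2 (3.01, 2.58 and 3.23 FPKM at D0 and 42.4, 27.9 and 50.4 FPKM at D8, 3.35 ± 0.27) and Hcn3 (0.321, 0.0601 and 0.0710 FPKM at D0 and 13.3, 10.2 and 14.6 FPKM at D8, 3.57 ± 0.21) rose. Cacna1b, the N-type calcium channel of terminals, was at 0.166, 0.0256 and 0.113 FPKM at D0 and 18, 8.21 and 13.5 FPKM at D8 (3.63 ± 0.26). Pore-forming sodium channels were low: Scn8a reached a mean of 3.50 FPKM (2.04 ± 0.23) and Scn1a, Scn2a1 and Scn3a stayed below the filter. Kcnd3, an A-type potassium channel, fell (-2.31 ± 0.21).

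Transmitter receptors rose in 18 of 25 that passed the filter (72%, against 15.9% of all genes). There were 2 lower (8%, against 17.8%) and 5 not called (40 listed). Of the 18, 11 passed through D8 alone, and of the other 14 genes 7 rose. The nicotinic subunit Chrnb2 was at 0.480, 0.398 and 0.603 FPKM at D0 and 31.3, 30 and 29.8 FPKM at D8 (4.40 ± 0.17), and Chrna7 at 3.10, 1.68 and 2.51 FPKM at D0 and 35.9, 36.2 and 32 FPKM at D8 (3.40 ± 0.20). The obligate NMDA receptor subunit Grin1 was at 0.171, 0.172 and 0.305 FPKM at D0 and 26.5, 14 and 24.3 FPKM at D8 (4.17 ± 0.24), while its partners Grin2a, Grin2b, Grin2c and Grin2d all stayed below the filter. Among AMPA receptor subunits Gria3 fell (24.7 to 8.53 FPKM, -1.44 ± 0.25). Gria2 (9.34 to 12.8 FPKM, 0.65) and Gria4 (0.49 ± 0.27) were not called. Gria1 did not pass the filter, with means of 2.77 FPKM at D0 and 0.317 FPKM at D8. The kainate subunit Grik5 fell (41.9 to 8.02 FPKM, -2.28 ± 0.19). The GABA receptor subunit Gabra3 was at 0.253, 0.0866 and 0.0307 FPKM at D0 and 20.1, 10 and 13.3 FPKM at D8 (3.74 ± 0.34).

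**Figure D3:**
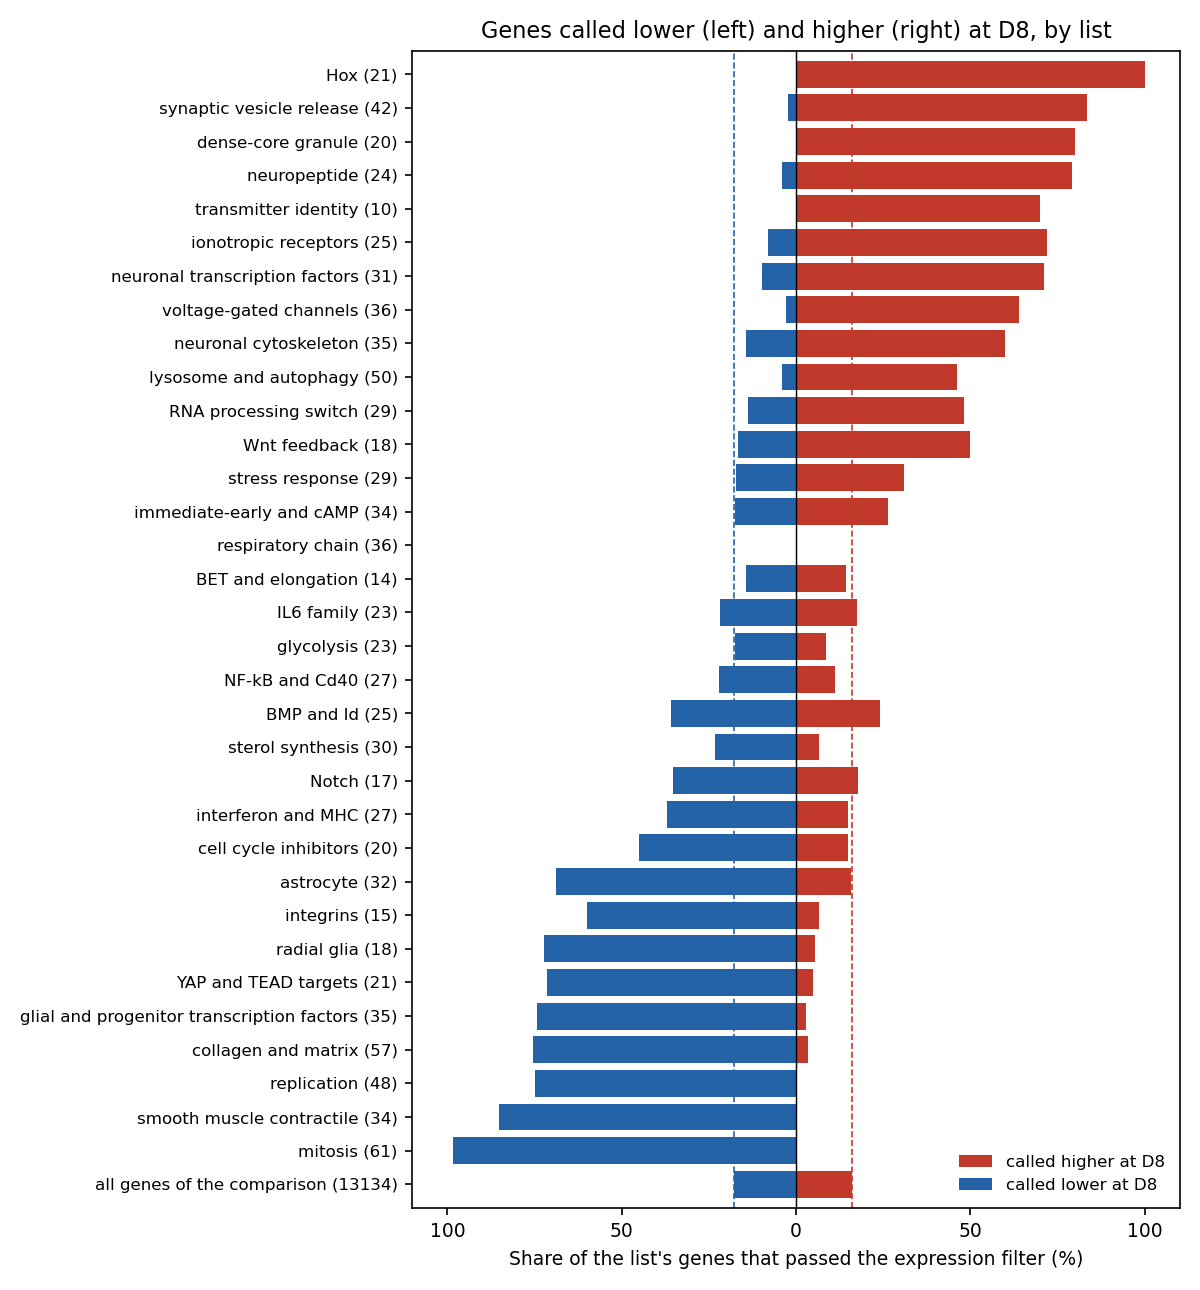
Share of genes called higher (right) and lower (left) at D8 in each gene list, over the genes that passed the expression filter (their number in parentheses), with dashed lines at 15.9% and 17.8%, the shares over all 13134 genes. Neuronal lists lie at the top and cell cycle, contractile and matrix lists at the bottom, while no respiratory chain gene was called. The lists are unequal in size, a share near a dashed line is the share of all genes, and genes that passed the filter through 1 group alone are included.

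The neuronal cytoskeleton changed member by member. Of 36 listed genes 35 passed the filter, 21 rose, 5 fell (14.3%, against 17.8% of all genes) and 9 were not called (median change 1.5). The neuronal intermediate filament Ina was at 0.393, 0.421 and 0.107 FPKM at D0 and 50.6, 42.3 and 48.7 FPKM at D8 (5.21 ± 0.17), and neurofilament Nefl at 8.21, 0.726 and 5.76 FPKM at D0 and 94.8, 142 and 98.9 FPKM at D8 (4.54 ± 0.50, and 3.81 without D0 replicate 2). The stathmins, which take tubulin out of microtubules, split: Stmn4 was at 0.445, 0.434 and 1.32 FPKM at D0 and 81.7, 182 and 107 FPKM at D8 (6.12 ± 0.27) and Stmn3 rose by 4.41, while Stmn2 went from 249, 346 and 318 to 163, 203 and 191 FPKM (-0.70 ± 0.20) and was not called. Tubulins split too. The neuronal beta-tubulin Tubb3 was at 8.03, 6.62 and 32.6 FPKM at D0 and 133, 216 and 174 FPKM at D8 (3.70 ± 0.39, and 4.37 without D0 replicate 3) and Tubb4a rose by 2.04, whereas Tubb2a (-1.36 ± 0.19) and the alpha-tubulin of growing neurons, Tuba1a (890.2, 1347 and 1000.0 FPKM at D0 and 331, 572 and 473 FPKM at D8, -1.25 ± 0.31), fell. Of the collapsin response mediators, which steer growth cones, Crmp1 rose (2.20 to 89.6 FPKM) and Dpysl2 and Dpysl3 fell (-1.36 ± 0.29 and -2.13 ± 0.26). The dendritic Map2 was at 12.8, 21.9 and 32.2 FPKM at D0 and 29.6, 21.8 and 23.3 FPKM at D8 (0.23 ± 0.24, adjusted p = 0.432).

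**Figure D4:**
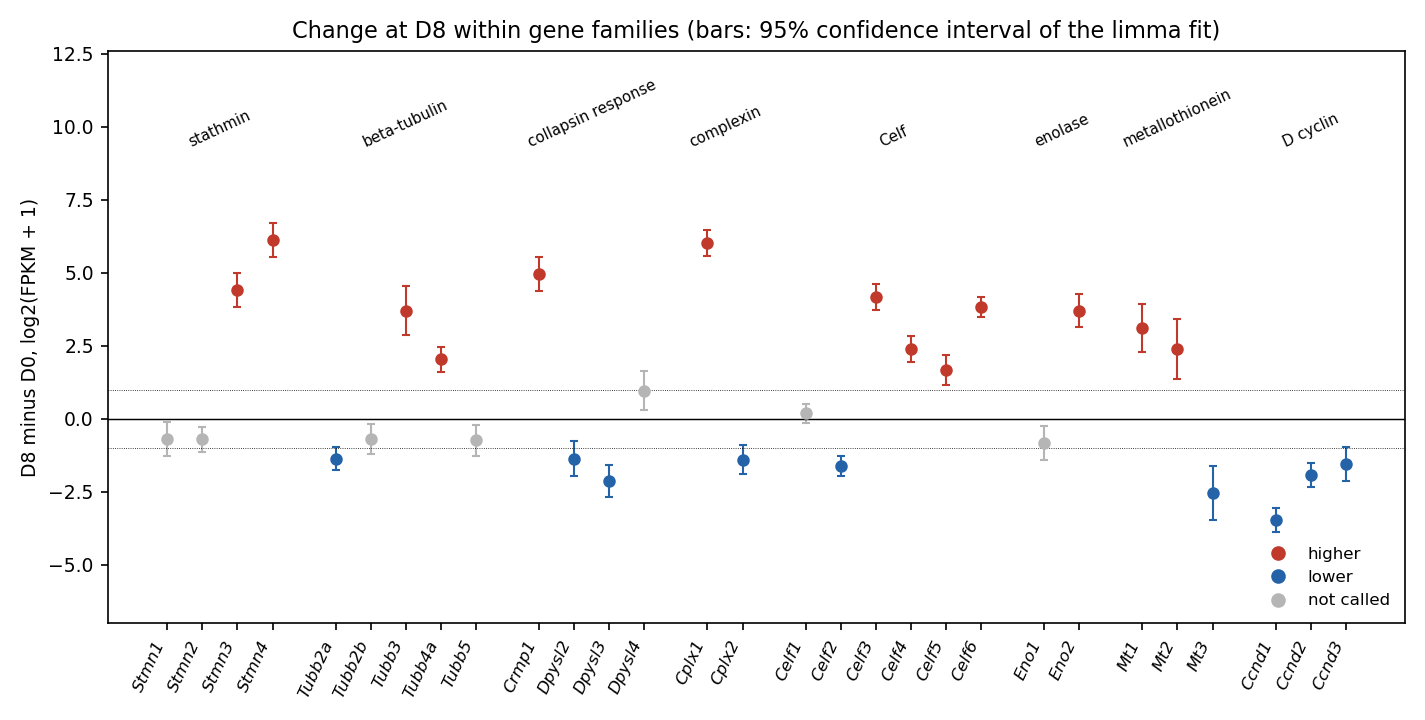
Change at D8 (D8 minus D0, log2(FPKM + 1), y axis) of the members of 8 gene families, with dotted lines at a change of 1 in either direction. Bars are 95% confidence intervals of the limma fit for means of 3 libraries a group, with the spread pooled over all 15 libraries. Members of the stathmin, tubulin, collapsin response, complexin, Celf and metallothionein families lie on both sides of 0, from Stmn4 at 6.12 to Mt3 at -2.54, while the 3 D cyclins are all lower.

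In glycolysis the neuronal enolase Eno2 was at 21, 16.8 and 16.3 FPKM at D0 and 211, 247 and 285 FPKM at D8 (3.71 ± 0.27), and the astrocyte aldolase Aldoc fell from 47.4, 26.5 and 85.2 to 13.7, 10.4 and 12.1 FPKM (-1.90 ± 0.34). The lactate exporter Slc16a3 rose to a mean of 26.2 FPKM (3.98 ± 0.28) and Pfkp and Pgk1 fell (-1.67 ± 0.21 and -1.32 ± 0.17). Of 23 glycolysis genes 2 rose (8.70%), 4 fell (17.4%, near the 17.8% of all genes) and 17 were not called.

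RNA-binding regulators rose in 14 of 29, fell in 4 (13.8%, against 17.8% of all genes) and were not called in 11. Of the 14, 7 passed through D8 alone, and of the other 22 genes 7 rose. Elavl3, a neuronal Hu protein, was at 3.37, 1.27 and 3.98 FPKM at D0 and 73.8, 65 and 73.2 FPKM at D8 (4.29 ± 0.22), and the splicing factor Celf3 at 0.400, 0.0434 and 0 FPKM at D0 and 23.5, 15.6 and 20.1 FPKM at D8 (4.17 ± 0.22). The neuronal splicing factors Srrm4 and Srrm3, which switch on microexons, rose by 2.10 and 3.25. Rbfox3, the NeuN antigen, was at 0.0342, 0.0844 and 0.194 FPKM at D0 and 4.18, 3.66 and 3.61 FPKM at D8 (2.13 ± 0.26). Ptbp1, which holds neuronal exons out of other cells' messages, was at 124, 128 and 123 FPKM at D0 and 56.6, 56.6 and 60.1 FPKM at D8 (-1.10 ± 0.26, adjusted p = 0.00198). Its neuronal paralog Ptbp2 was at 17, 10 and 15.9 FPKM at D0 and 15.6, 13.4 and 8.36 FPKM at D8 (-0.19 ± 0.28, adjusted p = 0.579). The groups did not overlap for Ptbp1 and overlapped for Ptbp2. Rest, the repressor of neuronal genes outside neurons, was at 11.7, 6.81 and 9.41 FPKM at D0 and 12.1, 6.48 and 8.87 FPKM at D8 (-0.03 ± 0.28, adjusted p = 0.928), and the 2 groups overlapped. Celf2, Msi1 and Qk, RNA-binding genes with high levels in glia or progenitors, fell (-1.62 ± 0.16, -1.72 ± 0.28 and -1.81 ± 0.28).

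Transcription factors of neurons rose in 22 of 31 genes that passed the filter, with 3 lower and 6 not called (50 listed). Of the 22, 17 passed through D8 alone, so the count is set largely by the filter. Of the 12 genes at 1 FPKM or more in some library of each group 5 rose, 2 fell and 5 were not called. Scrt1, a zinc finger repressor of newborn neurons, was at 0, 0.0320 and 0 FPKM at D0 and 62.7, 55.3 and 82.2 FPKM at D8 (6.05 ± 0.24). Sox11 was at 8.44, 4.66 and 6.38 FPKM at D0 and 51.5, 60.6 and 43.3 FPKM at D8 (2.83 ± 0.22). Sox4 (93.2 FPKM) and Dlx1 (12.7 FPKM) also rose, and the other 18 that rose had D8 means below 10 FPKM. The proneural Neurod1 was at 0.156, 0.0269 and 0.0478 FPKM at D0 and 6.44, 5.03 and 4.68 FPKM at D8 (2.56 ± 0.21), Neurog2 at a mean of 3.62 FPKM, and Neurod2, Neurod6, Tbr1 and Bcl11b of cortical neurons stayed below the filter. Fezf2, a factor of deep-layer cortical neurons (-1.72 ± 0.36), and Klf7 (-1.19 ± 0.23) fell. Factors of sensory, motor and spinal neurons were among those that rose: Isl2 (0.0491 to 7.15 FPKM), Pou4f1 (0.0240 to 4.02), Lhx5 (0.0280 to 4.12) and Phox2a (0.198 to 3.59).

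Hox genes, which set position along the body and are silent in the forebrain, passed the filter in 21 of 39 cases, in each case through the D8 libraries, and those 21 were called higher. Passing through D8 alone already required a difference, so their count supports nothing further. Hoxb7 was listed at 0 in every D0 library and at 16.5, 25.2 and 17.3 FPKM at D8. Hoxb4 was at 0.0379, 0 and 0 FPKM at D0 and 14.3, 18.7 and 17.2 FPKM at D8 (4.12 ± 0.17) and Hoxb13, the most posterior gene of its cluster, was listed at 0 at D0 and at 11.2, 12.9 and 9.93 FPKM at D8. The genes came from all 4 clusters and from anterior (Hoxb2, 1.66 FPKM) to posterior (Hoxd13, 2.77 FPKM) positions. The other 18 Hox genes, among them Hoxa5 and Hoxd10, stayed below the filter. Whether counting used strand is not given in the sources used here, so reads of Hox genes and of antisense transcripts that overlap them cannot be told apart.

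Few genes differed between D4 and D8 in comparison with the change from D0. By the same call rule 0.525% of the genes were higher and 1.57% lower at D8 than at D4, and 0.0152% (2 genes) were higher and 0.00761% (1 gene) lower at D16 than at D8: the peptide gene Adcyap1 and Hoxb9, and the membrane protein gene Stom. Slc1a3 had means of 189, 6.33, 2.55 and 1.99 FPKM at D0, D4, D8 and D16, and Acta2 1950.1, 3.34, 0.249 and 0.0685 FPKM. Neither was called between D4 and D8 (adjusted p = 0.232 and 0.481, limma), though both means were lower at D8. Vgf was at 3029 FPKM at D4 and 3106 FPKM at D8 (0.03 ± 0.47). A second group moved on from D4 to D8: Cplx1 from 28.5 to 86 FPKM (1.58 ± 0.21), Scrt1 from 20.7 to 66.7 FPKM (1.67 ± 0.24) and Hoxb7 from 5.03 to 19.7 FPKM (1.83 ± 0.31) rose. Cell cycle genes and Olig1 fell over the same interval: Ccnb1 from 7.68 to 0.296 FPKM (-2.74 ± 0.20), Mki67 from 4.40 to 0.169 FPKM (-2.17 ± 0.26) and Olig1 from 35.5 to 7.48 FPKM (-2.06 ± 0.39). From D8 to D16 none of these 9 genes was called, with Cplx1 at 123, Scrt1 at 80.8, Hoxb7 at 46.8 and Ccnb1 at 0.141 FPKM at D16. The genes followed over time were chosen after their values were seen, and the comparisons share the D8 libraries with the one against D0.

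Against primary neurons, some neuronal genes named above did not differ by the call rule at D8 and others were lower. The genes given here were chosen after their values were seen and stand for no list. Over the 13134 genes, 21.4% were higher and 13.8% lower at D8 than in PN by the same call rule. Snap25 had a mean of 134 FPKM at D8 and 195 in PN, a difference of -0.45 ± 0.27 (adjusted p = 0.158, limma). The D0 mean was 0.183 FPKM. The comparisons with D0 and with PN share the D8 libraries, so they are not independent. Sox11 (51.8 and 52.6 FPKM), Gad1 (36.9 and 54.4) and Nefl (112 and 105) likewise did not pass the test, which does not show that they were equal. Synapsin Syn1 was lower at D8 (34.3 against 84.9 FPKM, -1.29 ± 0.26). Some microtubule and growth genes were lower by more: Tuba1a 459 against 6597 FPKM (-3.88 ± 0.31), Gap43 96.4 against 1221 (-3.65 ± 0.26), Map2 24.9 against 216 (-3.07 ± 0.24) and Dpysl3 18 against 838 (-5.49 ± 0.26). Dcx, below the filter at D8, had a mean of 133 FPKM in PN. Rbfox3 (3.82 against 50.1 FPKM) and Neurod1 (5.38 against 28) were lower as well.

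Peptide genes were split in this comparison. Gal was at a mean of 574 FPKM at D8 and 0.668 FPKM in PN (8.43 ± 0.56), Calca at 1054 and 0.977 (9.0 ± 0.65), Vgf at 3106 and 84.6 (5.44 ± 0.47, and 6.03 without PN replicate 1) and Vip at 133 and 1.66 (5.78 ± 0.69). Sst and Cck, peptides of cortical interneurons and other forebrain neurons, were the reverse, at 29 and 456 FPKM (-3.50 ± 0.56, and -2.71 without PN replicate 1) and 24.9 and 372 FPKM (-3.73 ± 0.31). Ptbp1 and Rest were higher at D8 than in PN (1.68 ± 0.26 and 1.97 ± 0.28). Gfap was at 37.1 FPKM at D8 and 30.3 FPKM in PN (0.33 ± 0.62, adjusted p = 0.662).

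**Figure D5:**
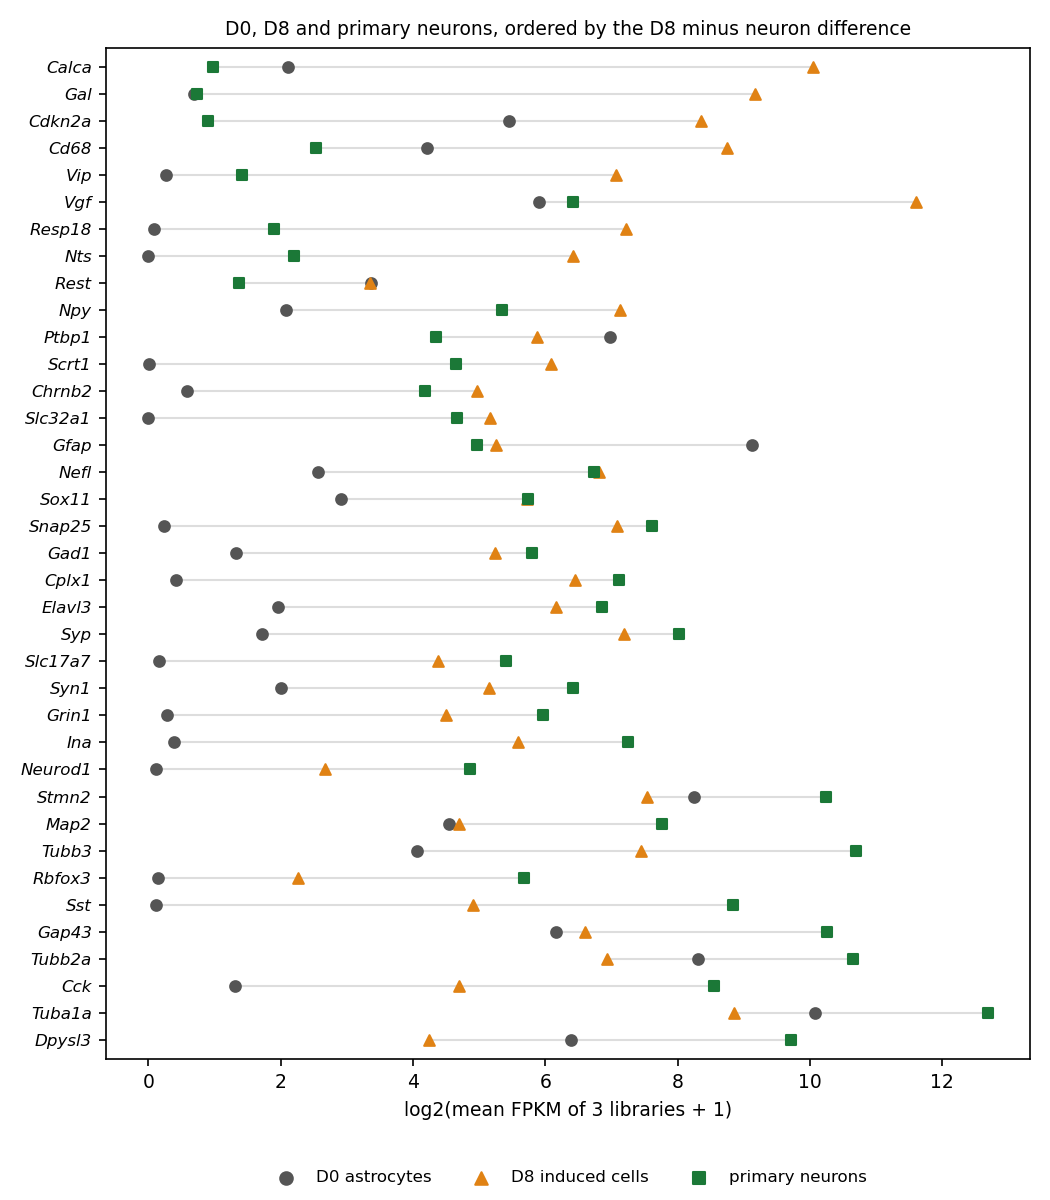
Levels, log2 of the mean FPKM of 3 libraries plus 1 (x axis), of 37 genes at D0, D8 and in primary neurons, ordered from genes highest at D8 relative to neurons (Calca, Gal) to genes lowest (Dpysl3, Tuba1a). Snap25, Sox11 and Nefl have D8 and neuron levels side by side and D0 apart, while for Stmn2, Tubb2a, Tuba1a and Dpysl3 the D8 level lies below D0.

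Astrocyte genes fell, with exceptions. Of 35 listed genes 32 passed the filter, 22 fell, 5 rose and 5 were not called (median change -1.83). Of the 22, 4 passed through D0 alone, and of the other 28 genes 18 fell. The share that rose was 15.6%, near the 15.9% of all genes, and 2 of these 5 passed through D8 alone. The glutamate transporter Slc1a3 was at 200.1, 99.9 and 266 FPKM at D0 and 2.40, 3.75 and 1.5 FPKM at D8 (-5.68 ± 0.39). The water channel Aqp4 was at 56.4, 52.8 and 140.3 FPKM at D0 and 0.417, 0.509 and 0.637 FPKM at D8 (-5.64 ± 0.38), and the astrocyte filament Gfap at 465, 383 and 832 FPKM at D0 and 39.2, 31.2 and 40.9 FPKM at D8 (-3.81 ± 0.62, adjusted p = 9.23e-05). The groups did not overlap in any of the 3, and at D8 Gfap had a higher FPKM level than Aqp4, Slc1a3 or Mlc1. Sparcl1, hevin, a secreted synapse-promoting protein, was at 154, 24.3 and 170.3 FPKM at D0 and 0.704, 0.807 and 2.28 FPKM at D8 (-5.34 ± 0.63, and -6.24 without D0 replicate 2). Glutamine synthetase Glul was at 146, 74.2 and 212 FPKM at D0 and 69.4, 126 and 117 FPKM at D8 (-0.38 ± 0.33, adjusted p = 0.334) and the groups overlapped. The 5 that rose were the lipid carrier Apoe (481, 572 and 1003 FPKM at D0 and 2203, 2824 and 1859.5 FPKM at D8, 1.80 ± 0.43), the amino acid transporter Slc7a10, the proteoglycan Gpc5, the neurotensin receptor Ntsr2 and the transsulfuration enzyme Cbs. Apart from Apoe and Cbs these stayed at or below a mean of 10.3 FPKM.

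Radial glia and progenitor genes fell in 13 of 18, rose in 1 and were not called in 4 (median change -1.72). The lipid-binding Fabp7 was at 1454, 1198 and 1844 FPKM at D0 and 14.3, 39.3 and 44.4 FPKM at D8 (-5.60 ± 0.54), and vimentin Vim at 7012, 5953 and 6053 FPKM at D0 and 907, 965 and 801 FPKM at D8 (-2.83 ± 0.55). The homeodomain protein Hopx, a marker of outer radial glia and of some quiescent stem cells, was the gene that rose, at 12.8, 4.88 and 14.2 FPKM at D0 and 308, 279 and 265 FPKM at D8 (4.73 ± 0.46). Transcription factors of glia and progenitors fell in 26 of 35 (1 higher, Hopx, and 8 not called, median change -1.62). The largest falls on the list were in the oligodendrocyte factors Olig1 (246, 186 and 293 FPKM at D0 and 4.25, 7.38 and 10.8 FPKM at D8, -4.89 ± 0.39) and Olig2 (-3.07 ± 0.42) and in Id4, which blocks proneural factors (-3.23 ± 0.25). Sox2, the stem cell factor, was at 169, 138 and 183 FPKM at D0 and 48, 58.6 and 45.4 FPKM at D8 (-1.67 ± 0.29). Sox9, the astrocyte-fate factor, fell (-1.96 ± 0.28), and the forebrain factor Lhx2 fell by 1.87.

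Contractile genes of smooth muscle and reactive cells fell broadly. Of 38 listed genes 34 passed the filter, 29 fell, 3 of them having passed through D0 alone, none rose and 5 were not called (median change -2.14). At an unadjusted limma p below 0.05, 31 were lower and 1 higher. Tagln, which binds actin in smooth muscle, was at 1154, 4024 and 1560.0 FPKM at D0 and 1.95, 3.22 and 2.23 FPKM at D8 (-9.14 ± 0.94), and the myosin light chain Myl9 at 425, 1307 and 539.8 FPKM at D0 and 6.46, 7.90 and 7.33 FPKM at D8 (-6.35 ± 0.64). D0 replicate 2 was the highest library for both, and all 3 D0 libraries were above all D8 libraries. The cytoplasmic actins Actb (2026, 3547 and 2211 FPKM at D0 and 525, 746 and 545 FPKM at D8, -2.07 ± 0.29) and Actg1 (-1.28 ± 0.28) fell, filamin Flna fell by 3.75, and Srf, the factor that drives these genes, was at 20.5, 33.5 and 29.2 FPKM at D0 and 7.79, 6.44 and 7.6 FPKM at D8 (-1.77 ± 0.18). Its cofactors Mkl1 (-0.59 ± 0.21) and Mkl2 (0.06 ± 0.26) were not called. The actins are close copies, so their counts could share reads.

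The promoters of 2 of these genes are shown with the serum response factor motif, the CArG box, in capitals (RefSeq, GRCm38.p6, gene strand). Myl9 is chr2:156775253-156775362 (plus strand) and Cnn2, a calponin, is chr10:79988494-79988599 (plus strand).
Myl9: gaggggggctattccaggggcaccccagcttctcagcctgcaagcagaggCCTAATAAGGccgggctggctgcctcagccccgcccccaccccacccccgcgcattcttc
Cnn2: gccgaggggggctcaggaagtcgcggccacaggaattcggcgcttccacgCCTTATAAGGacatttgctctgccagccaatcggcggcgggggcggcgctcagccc
The motif was present in 11 of 31 contractile genes with a promoter in the RefSeq table (35.5%), against 1.81% of all 27025 genes. Of the 11, 9 were called lower, in a list where 29 of 34 genes were. The list was chosen by known function, so the share describes the list and not the change at D8. Matches were not tested as sites. Cnn2 itself was at 483, 940.3 and 556 FPKM at D0 and 46.9, 51 and 47.7 FPKM at D8 (-3.68 ± 0.58).

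Targets and components of the YAP and TEAD pathway, which reads cell tension and density, fell in 15 of 21, with 1 higher and 5 not called (median change -2.06). The secreted matrix protein Cyr61 was at 500.3, 837 and 665 FPKM at D0 and 9.79, 3.14 and 7.86 FPKM at D8 (-6.48 ± 0.91), and its relative Ctgf at 125, 346 and 225 FPKM at D0 and 7.38, 1.96 and 2.87 FPKM at D8 (-5.55 ± 0.82). D8 replicate 2 was the lowest library for both. The coactivator Yap1 was at 51.4, 48.9 and 44.8 FPKM at D0 and 8.43, 8.61 and 12.9 FPKM at D8 (-2.19 ± 0.25) and its DNA-binding partner Tead1 fell (-2.06 ± 0.35), while Tead2 was not called (0.04 ± 0.33). Nt5e, an ectonucleotidase, was the listed gene that rose (1.38 ± 0.36). The TEAD motif CATTCC, in either orientation, was in 12 of 17 listed genes with a promoter (70.6%), against 16.6% of all genes. The list was chosen as targets and components of this pathway, so the share describes the list and not the change at D8. Matches were not tested as sites. The motif is shown in capitals for Cyr61, chr3:145650033-145650138 (minus strand), and for Amotl2, chr9:102717689-102717794 (plus strand), an inhibitor of YAP (-4.68 ± 0.28).
Cyr61: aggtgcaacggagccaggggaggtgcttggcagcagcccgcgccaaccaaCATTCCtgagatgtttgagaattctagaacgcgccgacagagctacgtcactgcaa
Amotl2: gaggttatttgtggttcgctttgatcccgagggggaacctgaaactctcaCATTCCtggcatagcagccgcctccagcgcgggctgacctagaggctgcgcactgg

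The extracellular matrix fell with them, in 43 of 57 genes (75.4%, against 17.8% of all genes), 8 of which passed through D0 alone. There were 2 higher (3.51%, against 15.9%) and 12 not called (64 listed, median change of the 57 genes -2.12). The small proteoglycan Prelp was at 122, 178 and 82.2 FPKM at D0 and 0.326, 0.245 and 0.184 FPKM at D8 (-6.61 ± 0.22, adjusted p = 2.44e-11), and fibromodulin, Fmod, at 111, 334 and 143 FPKM at D0 and 0.161, 1.14 and 0.946 FPKM at D8 (-6.70 ± 0.63). Collagen genes Col1a1 (133 to 7.26 FPKM), Col4a1 (67 to 2.73) and Col8a1 (92.1 to 0.769) fell by 4.06, 4.17 and 5.71. Fibronectin Fn1 was at 419, 269 and 300.1 FPKM at D0 and 26.9, 8.43 and 17.8 FPKM at D8 (-4.25 ± 0.40), and Sparc, which binds collagen, at 943, 1885 and 1257 FPKM at D0 and 42.9, 28.5 and 34.3 FPKM at D8 (-5.19 ± 0.57). The perineuronal proteoglycan Ncan fell (-2.0 ± 0.40). Of 15 integrins, the receptors for matrix, 9 fell (60%, against 17.8% of all genes), 1 rose (6.67%, against 15.9%) and 5 were not called. Itga1 had the lowest change (-3.76 ± 0.23) and the abundant Itgb1 was not called (593, 721 and 501 FPKM at D0 and 322, 344 and 367 FPKM at D8, -0.80 ± 0.21).

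Genes of mitosis fell almost without exception. Of 61 listed genes 60 fell, none rose, and Bub3 was not called (-0.03 ± 0.19), with 60 lower and 0 higher at an unadjusted limma p below 0.05. Of the 60, 39 were below 1 FPKM in every D8 library and passed through D0 alone, and of the other 22 genes 21 fell. Pbk, a mitotic kinase, was at 80.9, 66.2 and 65.6 FPKM at D0 and 0.120, 0.0371 and 0 FPKM at D8 (-6.09 ± 0.19). Cyclin Ccnb1 was at 78.6, 72.5 and 65.2 FPKM at D0 and 0.244, 0.225 and 0.419 FPKM at D8 (-5.82 ± 0.20), and the proliferation marker Mki67 at 30.6, 17 and 18.2 FPKM at D0 and 0.137, 0.120 and 0.251 FPKM at D8 (-4.25 ± 0.26). Every D8 library was below 1 FPKM for all 3 genes. DNA replication genes fell in 36 of 48, 10 of which passed through D0 alone, with none higher and 12 not called (median change -1.59, and 45 lower and 0 higher at an unadjusted limma p below 0.05). Thymidine kinase Tk1 was at 49.5, 57.7 and 44 FPKM at D0 and 0.601, 0.335 and 0.228 FPKM at D8 (-5.21 ± 0.31) and the helicase subunit Mcm5 at 27.9, 30.9 and 19.9 FPKM at D0 and 0.474, 0.373 and 0.312 FPKM at D8 (-4.27 ± 0.29). Of the 12 not called, the replication clamp Pcna was at 242, 221 and 194 FPKM at D0 and 177, 304 and 497 FPKM at D8 (0.45 ± 0.42, adjusted p = 0.365). It overlapped between groups and was highest in D8 replicate 3.

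Promoters of 2 mitotic genes and 1 replication gene are shown, with the cell cycle homology region (TTTGAA, or TTCAAA on the other strand) in capitals for Ube2c, chr2:164769850-164769928 (plus strand), and Cdc20, chr4:118437344-118437411 (minus strand), and the E2F motif (TTTCCCGC or TTTGGCGC, either strand) for Mcm5, chr8:75109310-75109417 (plus strand) (RefSeq, GRCm38.p6, gene strand).
Ube2c: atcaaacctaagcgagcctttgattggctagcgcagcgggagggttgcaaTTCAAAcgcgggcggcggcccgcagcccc
Cdc20: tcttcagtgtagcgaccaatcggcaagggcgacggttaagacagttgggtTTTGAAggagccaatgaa
Mcm5: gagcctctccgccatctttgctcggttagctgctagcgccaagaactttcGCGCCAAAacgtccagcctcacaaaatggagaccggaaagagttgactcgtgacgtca
The first motif was in 34 of 51 mitotic genes with a promoter (66.7%, against 20.2% of all genes), and CCAAT, which lies beside it in many such promoters, in 37 of 51 (72.5%, against 41.1%). The E2F motif was in 14 of 39 replication genes (35.9%, against 1.80%). Both lists were chosen by known function, so these shares describe the lists and not the change at D8. Matches were not tested as sites. Ube2c, a ubiquitin enzyme of the anaphase-promoting complex, was at 163, 164 and 117 FPKM at D0 and 1.73, 1.31 and 1.28 FPKM at D8 (-5.92 ± 0.22), and its activator Cdc20 at 105, 102 and 73.9 FPKM at D0 and 0.603, 0.506 and 0.726 FPKM at D8 (-5.86 ± 0.28). The mitotic factor Foxm1 fell (20.8 to 1.09 FPKM, -3.38 ± 0.17), while E2f1 was not called (-0.49 ± 0.20).

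Inhibitors of the cell cycle moved in different directions. The list, which also holds D cyclins, had 20 genes. Among them 3 rose (15%, near the 15.9% of all genes), 9 fell (45%, against 17.8%) and 8 were not called. Cdkn2a was at 51.4, 40.2 and 37.1 FPKM at D0 and 305, 379 and 291 FPKM at D8 (2.90 ± 0.30). The table does not separate its products p16Ink4a and p19Arf. Gadd45a, a stress-induced growth arrest gene, rose (35.2 to 185 FPKM, 2.37 ± 0.34), while Gadd45b fell (59.4 to 10.1 FPKM, -2.41) and Gadd45g was not called (0.19). Cdkn1a was at 255, 340.2 and 231 FPKM at D0 and 332, 322 and 328 FPKM at D8 (0.27 ± 0.19, adjusted p = 0.238), and Cdkn2c fell (-2.66 ± 0.22). Cdkn1b (-1.06) and Cdkn2d (-1.08) fell too, and both calls were lost when some single libraries were left out. Of the D cyclins, Ccnd1 was at 1546, 1304 and 1194 FPKM at D0 and 95.8, 113 and 163 FPKM at D8 (-3.46 ± 0.19), and Ccnd2 and Ccnd3 fell by 1.92 and 1.55. Of genes around BET bromodomain proteins and transcription elongation, 2 of 14 rose and 2 fell (14.3% each, near the 15.9% and 17.8% of all genes) and 10 were not called: Serpini1 rose (2.74, 2.45 and 2.97 FPKM at D0 and 30.9, 37.8 and 32.9 FPKM at D8, 3.23 ± 0.22), Myc fell (20, 9.84 and 13 FPKM at D0 and 2.90, 1.89 and 1.78 FPKM at D8, -2.22 ± 0.27), and Hexim1 was at 24.4, 26.4 and 37.2 FPKM at D0 and 49, 52.9 and 47.3 FPKM at D8 (0.76 ± 0.16).

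Feedback targets of Wnt signalling rose in 9 of 18 genes that passed the filter (27 listed). Of the others 3 were lower (16.7%, near the 17.8% of all genes) and 6 were not called. Of the 9, 3 passed through D8 alone. The zinc finger factor Sp5 was at 0.665, 0.393 and 0.639 FPKM at D0 and 51.6, 66.7 and 76.7 FPKM at D8 (5.38 ± 0.44), and Lef1, the pathway's DNA-binding factor, at 0.469, 0.327 and 0.318 FPKM at D0 and 11.1, 11.8 and 24.6 FPKM at D8 (3.53 ± 0.39). Axin2, the pathway's feedback inhibitor, was at 12.3, 15.7 and 11.7 FPKM at D0 and 31.2, 68.1 and 85.2 FPKM at D8 (2.03 ± 0.41). In each the D8 libraries were above all D0 libraries, with replicate 3 the highest. Tcf7 (-1.87 ± 0.35) and Bambi (-2.19 ± 0.24) fell. Of 17 Notch genes 3 rose (17.6%, near the 15.9% of all genes), 6 fell (35.3%, against 17.8%) and 8 were not called. The receptor Notch1 (26.6, 17.3 and 29.6 FPKM at D0 and 10.5, 2.67 and 4.73 FPKM at D8, -2.0 ± 0.42) and the modifier Lfng (-3.49 ± 0.32) fell, and the ligand Jag2 rose (2.44 ± 0.24). Of the effectors, Hes1 (-1.39) and Hey1 (-1.75) fell, Hey2 was not called (-0.59), and Hes5 and Heyl stayed below the filter. The Hes1 call was lost when some single libraries were left out. Of 25 BMP pathway genes 6 rose (24%, against 15.9% of all genes), 9 fell (36%, against 17.8%) and 10 were not called. The antagonist Nog was at 22.2, 69.7 and 64.6 FPKM at D0 and 2.51, 1.67 and 2.0 FPKM at D8 (-3.97 ± 0.33). The inhibitory Smad6 fell (-2.36 ± 0.30), and Msx1 and Bmp7 rose (3.08 ± 0.40 and 2.29 ± 0.22). Of the Id genes on the list, Id2, Id3 and Id4 fell (-1.02, -1.75 and -3.23), while Id1 was at -0.35 ± 0.61 (adjusted p = 0.646, limma). The calls of Id2 and Id3 were lost when some single libraries were left out.

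Immune genes moved in both directions. The list of NF-kB genes and Cd40 held 27 genes past the filter, of which 3 rose and 6 fell, shares of 11.1% and 22.2% that lie near the 15.9% and 17.8% of all genes. The necroptosis kinase Ripk3 was at 6.88, 3.81 and 4.35 FPKM at D0 and 42.2, 45.3 and 39.7 FPKM at D8 (2.88 ± 0.20), and the adhesion molecule Vcam1 at 134, 65.7 and 105 FPKM at D0 and 1.92, 2.22 and 2.31 FPKM at D8 (-4.97 ± 0.36). Among interferon and MHC genes 4 of 27 rose, 10 fell, 5 of which passed through D0 alone, and 13 were not called. The shares were 14.8% higher, near the 15.9% of all genes, and 37% lower, against 17.8% of all genes. The 4 were MHC class I heavy chains and their partner: H2-D1 was at 34.8, 41.6 and 49.5 FPKM at D0 and 625, 1053 and 841 FPKM at D8 (4.27 ± 0.30), and H2-K1, H2-Q4 and B2m rose by 2.63, 1.96 and 1.65. Of the genes that load class I peptides, Tapbp fell (-2.31 ± 0.20) and Tap1 and Tap2 were not called. Class I heavy chains are near-identical in parts, so reads could be split between them. The interferon-induced Ifitm3 was at 468, 606 and 547 FPKM at D0 and 6.55, 5.25 and 4.76 FPKM at D8 (-6.38 ± 0.55) and Ifit3 at 6.02, 14.9 and 21.8 FPKM at D0 and 0.0481, 0.0591 and 0.283 FPKM at D8 (-3.60 ± 0.31). Of the IL6 family 4 of 23 rose, 5 fell and 14 were not called, shares near those of all genes: lipocalin Lcn2, a marker of reactive astrocytes, was at 1.01, 0.510 and 2.54 FPKM at D0 and 112, 112 and 69.5 FPKM at D8 (5.45 ± 0.73), the cytokines Cntf (25.9, 80.9 and 53.8 FPKM at D0 and 0.792, 0.314 and 0.651 FPKM at D8, -4.97 ± 0.37) and Clcf1 (-4.34 ± 0.45) fell, and the receptor gene Cntfr rose (1.83 ± 0.18).

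Lysosomal and autophagy genes rose in 23 of 50 genes that passed the filter (46%, against 15.9% of all genes). There were 2 lower (4%, against 17.8%) and 25 not called (median change of the 50 genes 0.96). Cd68, a lysosomal membrane glycoprotein abundant in macrophages, was at 17.5, 21.6 and 13.4 FPKM at D0 and 193, 655 and 440.3 FPKM at D8 (4.40 ± 0.51). Of 12 microglia and macrophage markers, Cd68 among them, 10 were below 1 FPKM in every D8 library. The calcium channel of the lysosome, Mcoln1, was at 26, 17.7 and 22.1 FPKM at D0 and 129, 154 and 152 FPKM at D8 (2.68 ± 0.15), and the protease cathepsin B, Ctsb, at 201, 144 and 243 FPKM at D0 and 855, 1098 and 855 FPKM at D8 (2.28 ± 0.23). Neu1, which trims sugars, rose by 2.15. The factors that drive lysosomal genes were not called: Tfeb was at -0.22 ± 0.23 and Tfe3 at 0.01 ± 0.17. The most abundant cathepsin, Ctsd, was at 1204, 942 and 1099 FPKM at D0 and 1704, 1602 and 1835 FPKM at D8 and was not called (0.67 ± 0.19).

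Respiratory chain genes moved less: none of 36 was called by limma (9 higher and 3 lower at an unadjusted p below 0.05), with a median change of 0.20 and a range from Ndufs3 at -0.54 ± 0.17 to Ndufa1 at 0.91 ± 0.48. Sterol and lipid synthesis genes rose in 2 of 30 (6.67%, against 15.9% of all genes), fell in 7 (23.3%, against 17.8%) and were not called in 21. Dhcr7 rose (12.3, 8.77 and 13.8 FPKM at D0 and 48.1, 42.4 and 51.8 FPKM at D8, 1.96 ± 0.28), and Hmgcs1 fell (49.2, 53.1 and 103 FPKM at D0 and 17.3, 23.1 and 17.6 FPKM at D8, -1.70 ± 0.30). Stress genes rose in 9 of 29 (31%, against 15.9% of all genes), fell in 5 (17.2%, near the 17.8% of all genes) and were not called in 15. Ddit3 (CHOP), a factor of the unfolded protein and integrated stress responses, was at 30.2, 23.8 and 18 FPKM at D0 and 159, 223 and 159 FPKM at D8 (2.87 ± 0.28), whereas the chaperone Hspa5 was at 364, 381 and 334 FPKM at D0 and 378, 369 and 363 FPKM at D8 (0.04 ± 0.19). Of antioxidant genes Srxn1 rose (43.1, 44.6 and 53.4 FPKM at D0 and 208, 224 and 265 FPKM at D8, 2.28 ± 0.22) while Nqo1 (18.6, 33.1 and 22.2 FPKM at D0 and 1.29, 2.83 and 1.33 FPKM at D8, -3.19 ± 0.35) and Gclm (-2.21 ± 0.23) fell, and haem oxygenase Hmox1 was not called (-0.38 ± 0.33).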

How the data were processed

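RNA-seq levels came from 1 table of FPKM values that the authors deposited, with a column for each of 15 libraries and no counts, so depth is known only in relative terms. Reads were paired-end and the build was mm10 (GRCm38), per the submitters' processing notes and the labels; the aligner, the annotation and the program that computed FPKM are not given in the sources used here. Columns were matched to samples by title. Levels were fitted as log2(FPKM + 1) with limma 3.58.1 (R 4.3.3, trend) on 13983 genes with at least 1 FPKM in at least 3 of 15 libraries, as 5 group means with 10 residual degrees of freedom, and p-values were adjusted by Benjamini-Hochberg over all 13983. The fit was tested on simulated data. Tables were made with Python 3.11.15, numpy 2.4.6 and pandas 2.3.3, and figures with matplotlib 3.10.9. Promoters and coordinates are from RefSeq tables (GRCm38.p6), which matched 13099 of the 13134 genes. Promoters were searched on both strands from 250 bases before to 50 after the start, and printed stretches hold up to 50 bases on either side of the motif and end at or before the start.

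The genes compared and all lists were chosen with earlier results of these data known. Named genes are the 10 largest non-overlapping changes each way with at least 5 FPKM in the higher group, the 8 most abundant genes of each group, up to 6 called genes per list and direction with at least 5 FPKM, cell type markers and a panel. Other list members were named after their values were seen. Alternatives were another pseudocount (0.1), filters, scalings, a replicate block, the 6-library fit and each replicate left out. Those for the comparisons with D4, D16 and PN were chosen after seeing the data.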

Additional observations from a re-analysis of the deposited data

How the results depend on the processing

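Counts of called genes stayed within 1.5 times of 2089 higher and 2333 lower under another pseudocount, 2 other filters, 2 scalings, the replicate block and the 6-library fit, from 1761 to 2388 higher and 1894 to 2609 lower. Leaving out 1 library gave 1979 to 2158 higher and 2243 to 2401 lower genes. With no minimum on the change the counts were 3852 and 4111. Scaling to equal totals moved the median change to -0.11, and the share of calls that were higher ran from 43.3% to 49.0% against 47.2%. Replicate numbers were not treated as pairs, since the same-number correlations of deviations were 0.180, 0.285 and 0.002, and D0 replicate 3 correlated best with D8 replicate 1 (0.137); the replicate block gave 2100 higher and 2336 lower. Of 276 called genes named by rule, 259 were called in all 13 settings and none reversed, and of 360 other called list members 318 were called in all of them and none reversed. Of 66 list counts 21 moved by over 1.5 times in some setting: at a filter of 5 FPKM 9 Hox genes and 12 neuronal transcription factors were higher and 6 interferon genes lower, and without D0 replicate 1 NF-kB genes higher were 5. Among 37 genes compared with PN, 2 gained a call in some of 11 settings: Syp (-0.77, but -1.02 at equal totals, -1.08 without PN replicate 3) and Slc17a7 (-0.84, but -1.08 at equal totals, -1.03 without D8 replicate 1, -1.37 without PN replicate 3). Over time, 4 of 26 differences in 13 genes changed call when 1 library was left out, all in Vip, Lcn2 or Ccnd1. Low levels limit precision: without counts no counting interval can be given, and 3 libraries a group bound what limma can call. Whether libraries are separate cultures is not stated.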
